A study of Homo sapiens with 4 samples.

Results

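The EPB41 family, of the genes EPB41, EPB41L1, EPB41L2 and EPB41L3, was examined for cassette exons, which are exons that are either joined to both neighbours or skipped. All rows of the authors' deposited table with 1 of these 4 gene symbols were taken, which gave 40 events on 32 unique exons, out of 31408 events on 27483 unique exons. Because every combination of neighbours has a row of its own, 8 of the 32 exons had 2 events. The exons comprised 10 each of EPB41 and EPB41L1, 7 of EPB41L2 and 5 of EPB41L3.

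The libraries were strand-specific and made from total RNA depleted of ribosomal RNA. They came from 4 clones of HEK293T, a human embryonic kidney cell line, with 2 clones labelled WT and 2 labelled RBFOX2 KO. The labels give 1 protocol for all 4 clones: transfection with the Cas9 plasmid PX459 and with pgRGFP carrying guides on both sides of RBFOX2, sorting of single cells, expansion for weeks and PCR genotyping. Each library therefore stands for 1 clone. The deposited p-values rest on junction reads of these 4 clones, so they reflect read counts as well as differences between these clones, and no other clones. The comparison asks which exons depend on RBFOX2, a splicing regulator that binds GCATG. The table names its library columns only as set 1 and set 2, without a genotype. Differences are therefore given as first set minus second set, and whether RBFOX2 raised or lowered inclusion cannot be read from them. The columns of inclusion and junction reads per library were not used, since their names match no clone or group in the labels; the spread within each set was therefore not computed here. RBFOX2 itself had 0 events, and the knockout was not checked here. No gene level was available against which to check the cell type.

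Proteins of this family link the plasma membrane to the spectrin and actin skeleton. They share an N-terminal FERM domain, which binds membrane proteins, and a conserved C-terminal domain; between these lies a domain that binds spectrin and actin in some members. EPB41 encodes the founding member, known from the red cell; EPB41L1 encodes a form abundant in neurons, EPB41L2 a widely expressed form, and EPB41L3 a form also called DAL-1. EPB41 pre-mRNA is known for a short cassette exon in the spectrin-actin-binding domain that is switched on late in red cell development and is a known target of RBFOX2.

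The exons on which the results turn are shown first, read from GENCODE 29 transcripts and matched to the table by gene, exon length and intron length, without coordinates. Both 63-nt exons below had different inclusion in the 2 sets, and capitals mark the bases at which they are identical. The first lies at chr1:29386934-29386996 on the plus strand and the second at chr6:131201284-131201346 on the minus strand, in hg19, the build named in the submitters' processing notes.
EPB41 63-nt exon: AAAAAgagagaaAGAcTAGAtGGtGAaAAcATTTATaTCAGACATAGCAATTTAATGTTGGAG
EPB41L2 63-nt exon: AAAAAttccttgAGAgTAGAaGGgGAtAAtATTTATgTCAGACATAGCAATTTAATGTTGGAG

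These 2 exons were identical at 50 of 63 bases (79.4%), with 12 of the 13 differing bases among the first 30 and an unbroken identical run of 26 bases. Both are fully coding in GENCODE 29, start at a codon boundary and add 21 residues, of which 14 are the same in both proteins. No exon of like identity was found in the other genes by ungapped placement. Among 26 fully coding exons of EPB41L1 of at least 63 nt, the best ungapped placement of the EPB41 exon was identical at 44.4% of bases, and among 33 such exons of EPB41L3 it was identical at 46%.

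A difference was called at a false discovery rate (FDR) under 0.05 and an absolute inclusion difference of at least 0.1, on a scale from 0 (always skipped) to 1 (always included). By this rule 3 of the 40 events were called, 1 each in EPB41, EPB41L1 and EPB41L2, and none in EPB41L3, where the deposited p-value before adjustment was under 0.05 for 2 of the 7 events. The background in the authors' deposited table was 5.15% of all events, and 3 of 40 (7.5%) is near that share. Counted by exon it was 3 of 32 (9.38%) against 5.73% of all unique exons. Each of the 3 called exons had the higher inclusion in the second set. Over the whole table this direction held for 748 of the 1619 called events (2.38% of all events). Over all 40 events, 24 had the second set higher (60%, against 46.1% of the table), and the median absolute difference was 0.0565 (0.048 over the table).

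**Figure D1:**
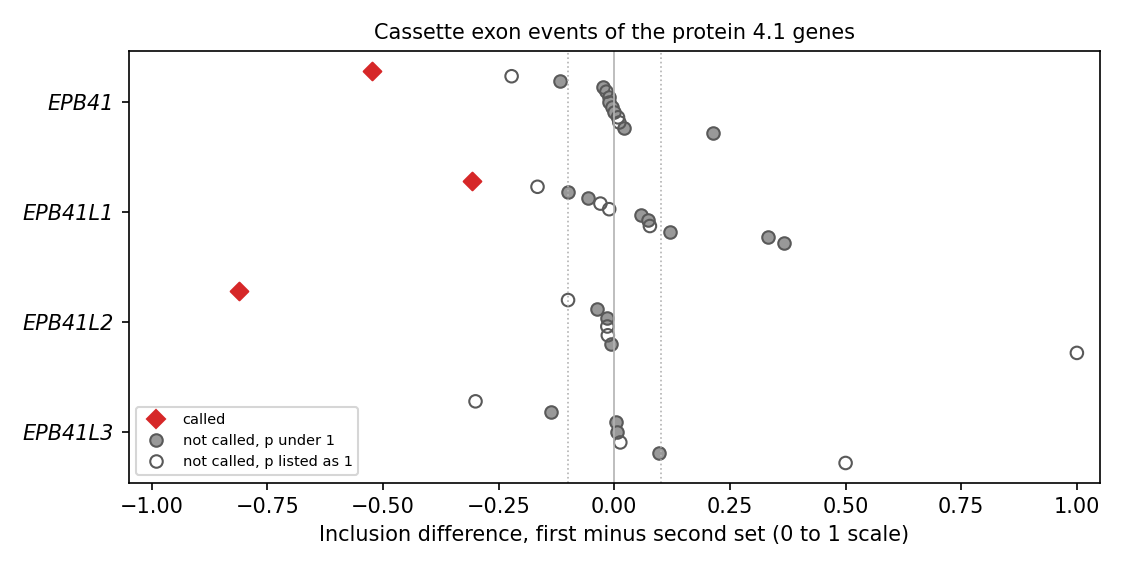
Inclusion difference (first minus second set, 0 to 1 scale) of each of the 40 events, by gene; red diamonds are called, filled circles are not called, open circles have a p-value listed as 1, and dotted lines mark a difference of 0.1 in either direction. The 3 called events lie at -0.524, -0.307 and -0.812, and events with larger positive differences, up to 1, were not called.

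In EPB41 the 63-nt exon (ENSG00000159023) was the called one. The authors' deposited table gave it a difference of -0.524, with a p-value and FDR listed as 0, when it was joined to the 209-nt exon upstream and the 177-nt exon downstream. In all, 38 events of the table had a p-value of 0. Among the 1619 called events, 225 had an absolute difference at least as large, and the median of the called events was 0.272. The introns on either side of the exon in this event measure 7109 and 4497 nt.

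The same exon was also listed with another upstream neighbour. Joined to the 57-nt cassette exon, the authors' deposited table gave -0.118 (p = 0.38, FDR = 1), in the same direction but not called. The 2 events share the downstream exon and intron and differ in the upstream exon. The upstream exon joins the 63-nt exon in the inclusion form and the downstream exon in the skipping form. GENCODE 29 holds 16 transcripts with the exon and 15 that join 1 of its listed pairs of neighbours directly.

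Upstream of the 63-nt exon lie a pair of further EPB41 cassette exons, which are shown because they share neighbours with it. They are fully coding and add 19 and 14 residues.
EPB41 57-nt exon, chr1:29385101-29385157: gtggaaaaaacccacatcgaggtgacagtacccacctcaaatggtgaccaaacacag
EPB41 42-nt exon, chr1:29385323-29385364: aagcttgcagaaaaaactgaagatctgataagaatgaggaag

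For the 57-nt exon the authors' deposited table gave 0.213 (p = 0.739), and for the 42-nt exon -0.222 (p = 1). Neither was called. Their signs were opposite, and 165 nt of intron separates the exons. Both events take the 63-nt exon itself as the downstream neighbour. Upstream, the 57-nt exon is joined to the 209-nt exon, and the 42-nt exon to the 57-nt exon.

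The other EPB41 exons differed little between the sets. The authors' deposited table listed 9 of the 13 EPB41 events with an absolute difference under 0.1, and each of those 9 lay between -0.025 and 0.021. Near the 5′ end, the authors' deposited table gave -0.025 and -0.001 for the 213-nt exon and -0.011 and -0.012 for its neighbour of 105 nt. In the middle of the gene, a 153-nt exon had 0.011 in the authors' deposited table. Toward the 3′ end, where the exons encode the C-terminal region, the 129-, 102-, 81- and 105-nt exons had -0.005, 0.021, 0.008 and -0.017 in the authors' deposited table. Of these only the 102-nt exon had an unadjusted p-value under 0.05 (0.0164, FDR = 0.182), and its difference was well under the minimum.

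**Figure D2:**
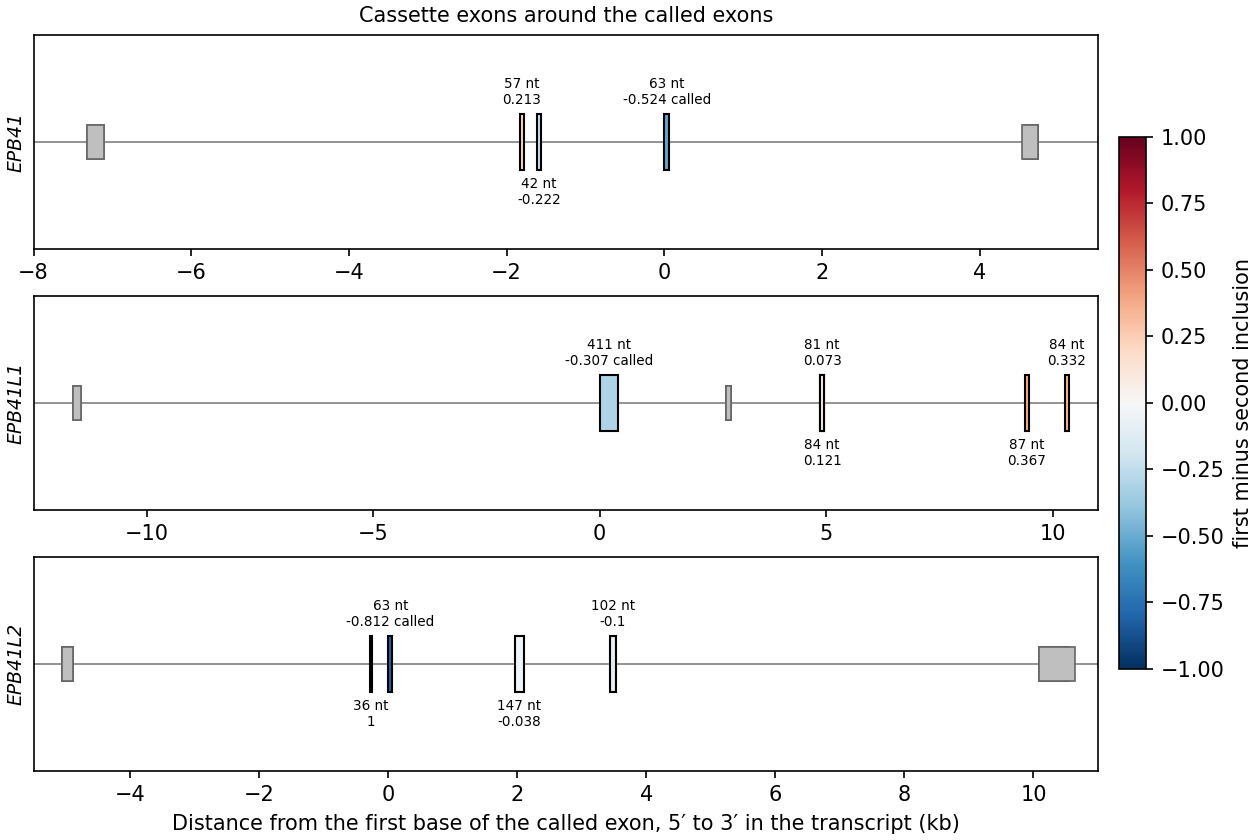
Cassette exons (tall boxes, coloured by inclusion difference, first minus second set) and their other listed neighbours (short grey boxes) within a few kb of the called exons of EPB41, EPB41L1 and EPB41L2, drawn to scale in transcript direction as distance in kb from the first base of the called exon. Labels give exon length and the difference of the event with the lowest p-value; in EPB41 and in EPB41L2 a short cassette exon that was not called (42 nt and 36 nt) precedes the called 63-nt exon.

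In EPB41L2 (ENSG00000079819) the called exon was the 63-nt exon shown above, which corresponds in sequence to that of EPB41. The authors' deposited table gave -0.812 for it (p = 0.000477, FDR = 0.0114), with a 173-nt exon upstream and a 147-nt exon downstream. This was the largest absolute difference among the called events of the family, and 47 of the 1619 called events of the table had one at least as large. Its p-value was nevertheless the highest of the 3 calls, and the call was lost at an FDR limit of 0.01 and under a Bonferroni correction. GENCODE 29 holds 6 transcripts with this exon and 0 that join its listed neighbours directly. Reads shared between the 2 genes were not tested for; the longest identical run between the 2 inclusion forms, flanking exons included, was 28 bases.

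A 36-nt exon of EPB41L2 lies 247 nt upstream of the 63-nt exon and uses it as downstream neighbour. The authors' deposited table gave this exon a difference of 1, from full inclusion to full skipping, with a p-value of 1, so the largest difference of the family carried no support from the authors' test. It is partly coding in GENCODE 29. Downstream, the 147-nt exon had -0.038 (p = 0.443) in the authors' deposited table. The adjacent 102-nt exon had -0.1 with the 147-nt exon as neighbour and -0.015 without it in the authors' deposited table, both with a p-value of 1. This 102-nt exon is held by 1 GENCODE 29 transcript, against 10 that join 1 of its listed pairs of neighbours.

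The remaining EPB41L2 exons were within 0.1 of no difference. The 43-nt exon had -0.014 in the authors' deposited table. Near the 3′ end, the 113- and 108-nt forms of 1 exon, which differ by 5 bases at their downstream end, had -0.015 and -0.008 in the authors' deposited table.

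EPB41L1 (ENSG00000088367) had a called exon of another kind. The authors' deposited table gave -0.307 (p = 1.34e-08, FDR = 1.62e-06) for a 411-nt exon at chr20:34797410-34797820 on the plus strand (hg19), between a 183-nt and a 105-nt exon. It is the longest exon of the family in the table, is fully coding from a codon boundary and adds 137 residues. Among the called events of the table, 700 of 1619 had an absolute difference at least as large, so its size was near the middle of the calls. Its effective length for inclusion reads, 188 nt, is the longest the table uses, against 157 nt for the 63-nt exons. Its ends are shown because the junction reads counted in the table cross them.
EPB41L1 411-nt exon, first 60 bases: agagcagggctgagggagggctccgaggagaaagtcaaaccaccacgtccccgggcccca
EPB41L1 411-nt exon, last 60 bases: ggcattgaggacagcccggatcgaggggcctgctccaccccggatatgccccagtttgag

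Downstream of the 411-nt exon, no EPB41L1 event was called, and the differences were positive except for a value of -0.101. An exon of this stretch starts at either of 2 splice sites 3 bases apart, and the capitals mark the bases that the shorter form lacks.
EPB41L1 84-nt exon, chr20:34802279-34802362: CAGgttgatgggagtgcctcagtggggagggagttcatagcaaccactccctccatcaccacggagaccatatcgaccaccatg

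The 84-nt form had 0.121 (p = 0.188) and the 81-nt form 0.073 (p = 0.492) in the authors' deposited table, with the same neighbours. For the following 87-nt exon, the authors' deposited table gave 0.367 with an unadjusted p-value of 0.0233 and an FDR of 0.236. The second 84-nt exon, at chr20:34807683-34807766, had 0.332 (p = 0.0592) when it was joined to a 68-nt form of the first 84-nt exon and -0.101 (p = 0.0695) when it was joined to the 87-nt exon in the authors' deposited table. The 2 values had opposite signs, neither event was called, and the difference between them was not tested.

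Upstream, 5 EPB41L1 exons were not called. The authors' deposited table gave -0.166 (p = 1) and 0.057 (p = 0.943) for the events of a partly coding 191-nt exon. The 105-, 43-, 219- and 36-nt exons had -0.056, 0.077, -0.03 and -0.011 in the authors' deposited table. These 4 exons are fully coding, and the 43-nt exon is the only one of them whose length is not divisible by 3.

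EPB41L3 (ENSG00000082397) had 0 called events of 7, with 2 p-values under 0.05 before adjustment. The authors' deposited table gave -0.137 (p = 0.0329, FDR = 0.303) for an 81-nt exon and 0.097 (p = 0.0467, FDR = 0.395) for the 117-nt exon that follows it. These adjacent exons near the 3′ end had opposite signs. EPB41L3 also has a 54-nt exon, which had 0.004 in the authors' deposited table. The events of the 123-nt exon had -0.3 and 0.013, and those of the 75-nt exon 0.5 and 0.005, in the authors' deposited table. In both cases the larger value carried a p-value of 1. The 54-nt exon and both of these exons are fully coding, and each has a length divisible by 3.

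**Figure D3:**
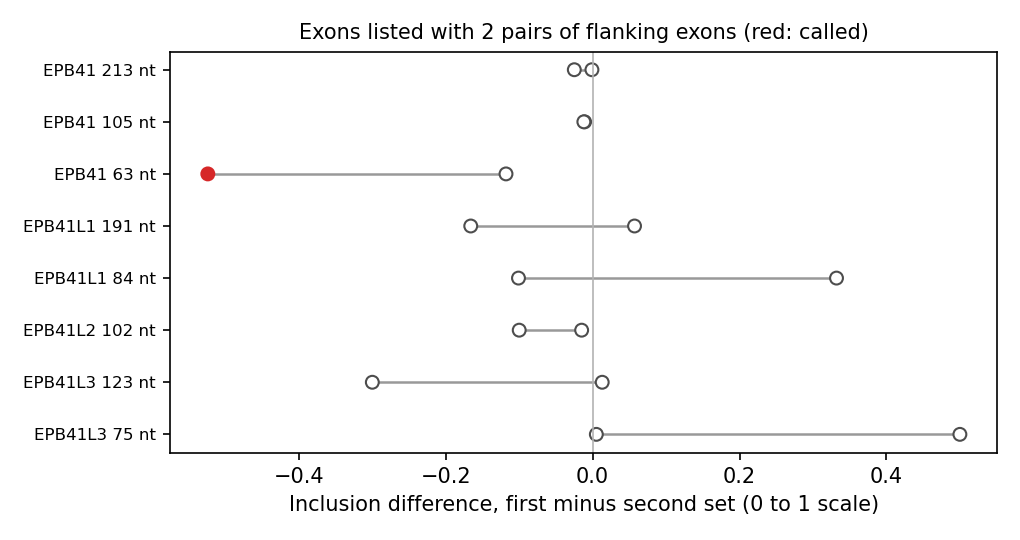
Inclusion difference (first minus second set, 0 to 1 scale) of the 2 events of each of the 8 exons listed with 2 pairs of neighbours; red is called, open circles are not. The 63-nt exon of EPB41 lies at -0.524 with 1 upstream neighbour and at -0.118 with the other, and the 191- and 84-nt exons of EPB41L1 and the 123-nt exon of EPB41L3 lie on both sides of 0.

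Size alone did not make a call, in this family or in the whole table. Of the 40 events in the authors' deposited table, 16 reached the minimum difference of 0.1 in either direction, and 13 of these were not called. Over all events, 9900 reached it and 8281 of these were not called. The p-value was 1 for 15 of the 40 events (37.5%, against 51.4% of all events). It was under 0.05 before adjustment for 7 events (17.5%, against 12% of all events).

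**Figure D4:**
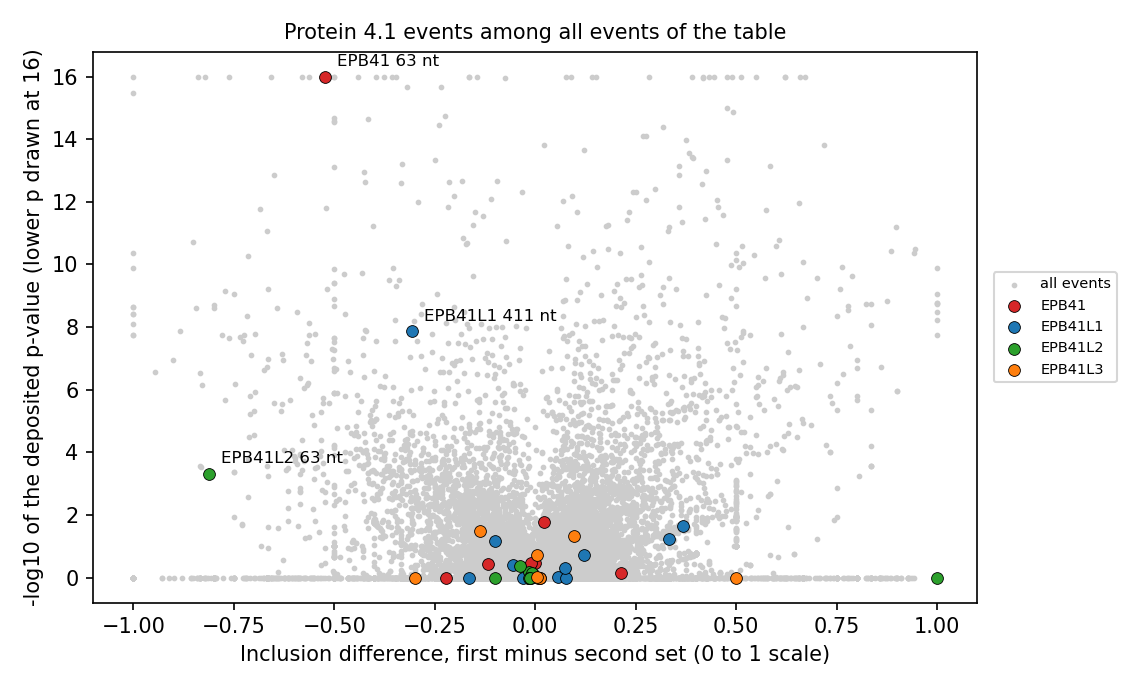
Inclusion difference (first minus second set, 0 to 1 scale) against -log10 of the deposited p-value for all 31408 events (grey) and the 40 events of the family (coloured by gene); p-values too small for the axis, 0 included, are drawn at its top. The called exons of EPB41, EPB41L1 and EPB41L2 stand apart from the other 37 events, which lie below them.

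Similar exons of different genes were compared to see whether they had similar differences. Of 83 pairs of exons from different genes with a shorter exon at least 80% as long as the longer, 9 pairs were identical at 60% or more of bases, and the next pair was at 48.8%. Forms of an exon with different ends were counted separately, so the 9 include pairs of both the 113- and the 108-nt form of an EPB41L2 exon. Both exons of the 63-nt pair were called, that of EPB41 in 1 of its 2 events (-0.524, against -0.118 in the other). The only other called exon of the family, that of 411 nt, had no exon of like length to pair with. A call in another of the 9 pairs was thus possible only through a further match of a 63-nt exon, and none was found. The pair with the highest identity, 82.7%, was the 81-nt exon of EPB41 and that of EPB41L3, shown with identical bases in capitals.
EPB41 81-nt exon, chr1:29438880-29438960: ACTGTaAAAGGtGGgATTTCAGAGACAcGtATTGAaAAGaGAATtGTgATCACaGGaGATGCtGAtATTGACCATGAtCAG
EPB41L3 81-nt exon, chr18:5395066-5395146: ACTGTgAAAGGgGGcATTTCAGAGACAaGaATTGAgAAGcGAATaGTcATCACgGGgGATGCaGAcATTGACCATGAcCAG

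All 27 residues encoded by these 2 exons are the same, so the differing bases do not change the protein. Their differences in the authors' deposited table were 0.008 (p = 1) and -0.137 (p = 0.0329), and neither was called. The exons that follow them, 105 nt in EPB41 and 117 nt in EPB41L3, were identical at 69.5% of bases and had -0.017 and 0.097 in the authors' deposited table. In EPB41L2 the 113-nt exon was identical to the 117-nt exon of EPB41L3 at 71.7% of bases and had -0.015 in the authors' deposited table. Near the 5′ end, the 105-nt exons of EPB41 and EPB41L1 were identical at 61% of bases, with -0.011 and -0.056 in the authors' deposited table.

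**Figure D5:**
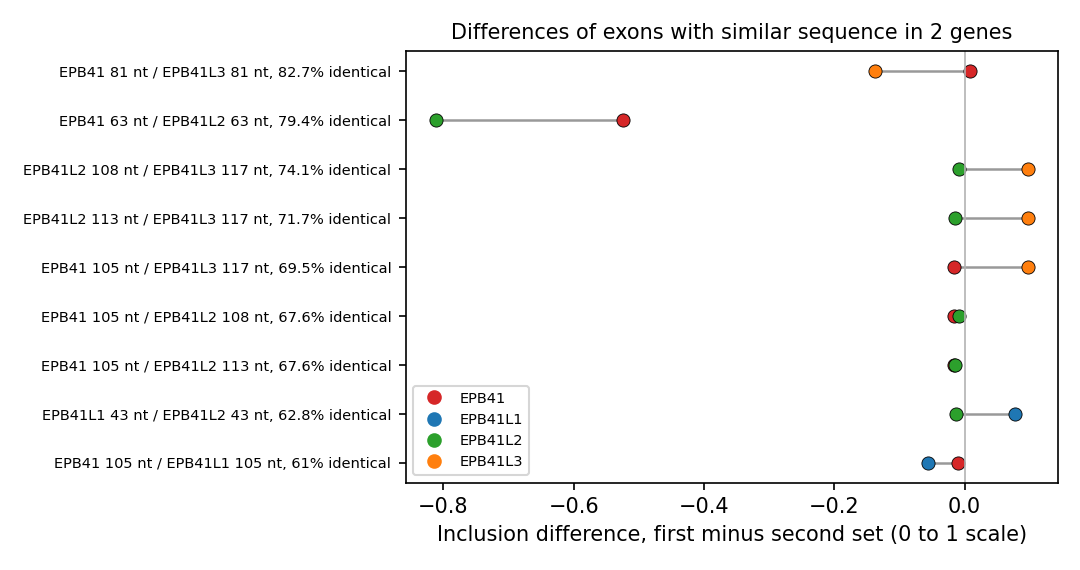
Inclusion differences (first minus second set, 0 to 1 scale; for each exon the event with the lowest p-value) of the 9 pairs of exons from different genes with at least 60% identical bases, ordered by identity, with 1 point per gene. The 63-nt pair lies at -0.524 and -0.812, and the exons of the other 8 pairs lie between -0.137 and 0.097. The other event of the EPB41 63-nt exon, which is not drawn, was at -0.118, within that range. Both forms (113 and 108 nt) of an EPB41L2 exon are drawn in separate pairs.

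In structure, the length was a multiple of 3 for 28 of the 32 exons (87.5%), so that skipping keeps the reading frame where they are coding. The share was 40.7% of all unique exons, a set not limited to coding exons. It was 56.7% for the membrane skeleton genes and 51.5% for the other FERM-domain genes, the 2 lists described below. The exceptions in the family were the 191- and 43-nt exons of EPB41L1 and the 113- and 43-nt exons of EPB41L2. In GENCODE 29, 26 exons were fully coding and 6 partly coding. Exon lengths ran from 36 to 411 nt with a median of 94.5 nt (117 nt for all unique exons). Over the 40 events the introns ranged from 165 to 61283 nt, with medians of 5082.5 nt upstream and 3090 nt downstream, against 2246 and 2095 nt for all events.

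The GCATG element was searched in the exons on the sense strand, and the introns were not searched, since no hg19 genome was used here. It was found in 1 of the 32 exons, the 219-nt exon of EPB41L1, and in 11.6% of the 24785 exons of the table that matched GENCODE 29. None of the 3 called exons held it, and the 6-letter form TGCATG, which contains it, was in none of the 32 (3.2% of matched exons). The other strand held GCATG in 3 of the 32 exons (11.6% of matched exons). The 219-nt exon is shown with both copies in capitals, at bases 67 and 127 counted from its 5′ end; the authors' deposited table gave it -0.03 with a p-value of 1.
EPB41L1 219-nt exon, chr20:34773039-34773257: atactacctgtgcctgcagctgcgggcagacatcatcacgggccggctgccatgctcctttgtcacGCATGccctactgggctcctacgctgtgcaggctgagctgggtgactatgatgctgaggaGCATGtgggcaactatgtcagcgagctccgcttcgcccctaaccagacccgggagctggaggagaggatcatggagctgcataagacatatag

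Partners of the family in the membrane skeleton were called at a share near that of the whole table. Of 24 listed genes for spectrins, ankyrins, adducins, tropomodulins and associated proteins, 16 had events, and 2 of their 64 events (3.12%, against 5.15% of all events) were called, with the first set higher in both. For ANK2, an ankyrin that anchors membrane proteins to spectrin, a 183-nt exon was at 0.573 (FDR = 1.63e-05) in the authors' deposited table. DLG1, which encodes a membrane-associated scaffold protein, had a 99-nt exon at 0.334 (FDR = 5.12e-06) in the authors' deposited table. The median difference over the list was 0.0115, against 0.004 over the table and -0.011 over the EPB41 family.

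Of 28 other genes for proteins with a FERM domain, 24 had events, and 4 of their 76 events (5.26%, near the 5.15% of all events) were called, 2 in each direction. FERMT2, a kindlin of focal adhesions, had 0.416 (FDR = 1.12e-10) for its 21-nt exon in the authors' deposited table. The phosphatase gene PTPN4 had 0.344 (FDR = 0.0241) for a 69-nt exon, also in the authors' deposited table. In the other direction, a 45-nt exon of the tumour suppressor NF2 had -0.118 (FDR = 1.07e-05) in the authors' deposited table. For FRMD8, a 102-nt exon had -0.376 (FDR = 0.00362) in the authors' deposited table. The median difference over this list was 0.0095.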

How the data were processed

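Per the file headers, the authors deposited an rMATS table of skipped exons made from junction counts. Reads were aligned with STAR 2.7.3a, and hg19 was the build, per the submitters' processing notes; the rMATS version, annotation and filters are not given in the sources used here. The authors tested inclusion between 2 sets of libraries and deposited a p-value and FDR, which equalled a Benjamini-Hochberg adjustment over 31408 events. The sign of a difference follows the rMATS convention. The 6 columns of values per library were named only by set and were not used, so depth per library is not given.

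Events with the same cassette exon position were counted as 1 exon. Exons were matched to GENCODE 29 by gene, length and both flanking introns (27 of 32) or 1 intron (5 of 32). Every event of the family is described; from the 2 gene lists the called exons are named, at most 10 per list. The members and lists were chosen with earlier results of these data known. The alternatives were FDR limits of 0.01 and 0.1, no minimum difference, one of 0.2, Bonferroni correction, and an FDR over events with a p-value under 1. The call rule and the count of identical bases were tested on simulated data. The match by both introns was checked only for equal exon length, which it requires by construction. Python 3.11.15, pandas 2.3.3, numpy 2.4.6, biopython 1.88 and matplotlib 3.10.9 were used.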

Additional observations from a re-analysis of the deposited data

How the results depend on the processing

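The counts of EPB41 family events and exons called were 2 at an FDR limit of 0.01 and under Bonferroni correction and 3 under the other alternatives run, with the second set higher in each. The exon lost in both cases was the 63-nt exon of EPB41L2, with a difference of -0.812, an FDR of 0.0114 and a Bonferroni-adjusted p-value of 1. The calls for EPB41 and EPB41L1 held under each alternative run for them. Bonferroni correction also brought all called events from 1619 to 472 and those of the other FERM-domain genes from 4 to 2; the stricter limit lowers these by construction. With TGCATG in place of GCATG, 0 exons held the element instead of 1. Alternatives for the 2 gene lists were added after the data were seen. No paired analysis was possible because no library column names a replicate. A refit of junction counts and leaving out each library were not run, since the columns per library were not used; how far 1 library decides a call was not tested. The intron windows were not run, because no genome of the table's build was used here.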
